A study of Mus musculus with 4 samples.

Results

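The genes described here encode the cAMP response element-binding protein CREB (Creb1) and its relatives Crem and Atf1, serum response factor (Srf) with its partners Elk1 and Myocd, and the coactivators CREB-binding protein (CBP, gene Crebbp), p300 (Ep300), Crtc1 and Crtc2. The 10 genes were chosen by symbol, and each was represented by its brightest probe set, of which each had 1, out of 33793 probe sets with 30921 symbols in all. The tissue was right hippocampus, taken from behaviourally naive males at postnatal day 90. Each of the 4 Affymetrix Mouse Gene 2.0 ST arrays held 1 mouse, 2 labelled IPMK cKO and 2 labelled IPMK WT. The IPMK cKO mice carried floxed Ipmk alleles (Ipmk f/f) with CaMKII-Cre, which acts in excitatory neurons of the postnatal forebrain, and the IPMK WT mice were littermates with the same floxed alleles and without Cre. Glia, interneurons and other cells of the dissected tissue lie outside the reach of this Cre, and each value is an average over all cells of the tissue. A lower share of a cell type and less RNA per cell cannot be told apart in such tissue.

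CREB binds the cAMP response element, a short DNA motif in the promoters of genes induced by neuronal activity, and once phosphorylated it recruits the acetyltransferases CBP and p300. The CRTC proteins enter the nucleus when dephosphorylated and join CREB on DNA. SRF binds CArG boxes and works with the ternary complex factor ELK1 downstream of MAP kinases or with myocardin-type coactivators coupled to actin. Both factors drive immediate early genes in hippocampal neurons, and inositol polyphosphate multikinase (IPMK) is described as binding CBP and SRF, which is why the level of their transcripts in IPMK cKO tissue is of interest.

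The promoter windows show where the members and their targets carry these motifs. The windows span 250 bases before and 50 from the annotated start site on (RefSeq, build GRCm38.p6), and 7 of the 10 members had an entry. In Srf, with its gene on the minus strand of chromosome 17 (chr17:46556113-46556412), a script found CArG boxes starting 82 and 62 bases upstream of the start site and the core TGACG of the cAMP response element (CRE) 201 bases upstream. In Atf1 (chr15:100227749-100227798, plus strand) the core lay 90 bases upstream. Capitals mark the CArG boxes and the TGACG core, which reads CGTCA where it lies on the other strand.
Srf: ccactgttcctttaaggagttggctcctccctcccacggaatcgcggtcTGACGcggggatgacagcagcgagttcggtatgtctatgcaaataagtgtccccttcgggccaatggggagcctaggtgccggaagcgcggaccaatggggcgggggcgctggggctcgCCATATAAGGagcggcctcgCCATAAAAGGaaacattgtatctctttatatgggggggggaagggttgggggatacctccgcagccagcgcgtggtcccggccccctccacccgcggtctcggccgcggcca
Atf1: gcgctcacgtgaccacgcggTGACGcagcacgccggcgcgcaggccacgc

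Searched on both strands, a CArG box was found in 1 of the 7 members with a window (Srf), against 1.81% of the 27025 genes in the table. The core TGACG was found in 2 of 7 (Srf and Atf1), against 23% of all genes, and the palindrome TGACGTCA, which contains the core on both strands, in 0 of 7 against 2.03%. The letters CCGGAAGT, a strong site for ETS factors such as ELK1, were found in 0 of 7 against 4.31%. A match of letters is a description of the window and not a measured binding site.

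**Figure D1:**
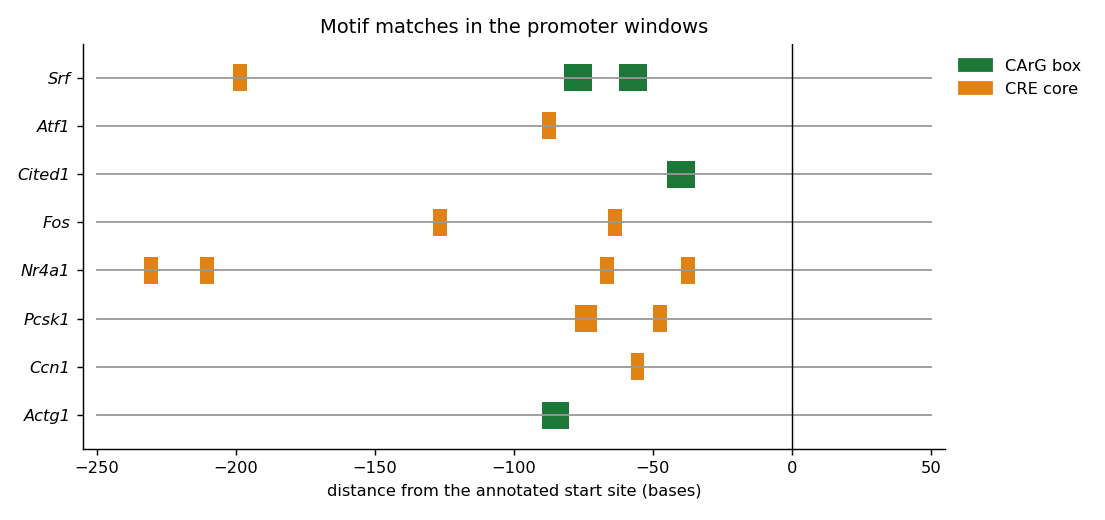
Motif matches in the promoter windows of 8 genes, by distance in bases from the annotated start site (vertical line), with green boxes for CArG boxes and orange boxes for the TGACG core on either strand. Srf carries CArG boxes 82 and 62 bases upstream, and Atf1 a TGACG core 90 bases upstream.

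The deleted gene itself went against the labels. One Ipmk probe set (19 probes) had log2 values of 8.44 and 8.78 under the label IPMK cKO, against 7.68 and 7.71 under IPMK WT, and the other (18 probes) had 6.97 and 6.43 under IPMK cKO, against 5.78 and 5.52 under IPMK WT. Both were higher in each array labelled IPMK cKO, by 0.92 and 1.05 between group means, or 1.89-fold and 2.07-fold. By limma p they stood at places 11 and 36 among the 33793 probe sets (unadjusted p = 0.0012 and 0.0030 in limma). Neither passed the adjusted threshold, which 0 of the 33793 probe sets passed. Which exons the deletion removes, and whether probes read them, is not given in the sources used here. Every direction below is that of the labels. An exchange of the labels, which would turn every sign, was not tested. Excitatory neuron markers were bright on all arrays (7 of 7 above a log2 value of 4), and array medians lay between 5.1 and 5.15. Values are RMA log2 values, differences are group means of the arrays labelled IPMK cKO minus those labelled IPMK WT, and tests are limma's, adjusted by Benjamini-Hochberg over all probe sets with a threshold of 0.05.

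None of the 10 genes differed between the labels by more than the spread between arrays allowed limma to call. Passing the threshold were 0 of 10, with 0 of 10 at an unadjusted p under 0.05, where over all probe sets 0% passed after adjustment and 2.86% before it. Differences ran between −0.04 for Crebbp and 0.16 for Srf, 6 positive and 4 negative, with a median of 0.01 beside −0.0046 over all probe sets. In 10 of 10 genes a 1.5-fold change in either direction lay outside the 95% confidence interval, as it did in 75.2% of all probe sets. The 10 include Crem and Myocd, with mean levels of 4.87 and 5.34, near the median of 5.13 over all probe sets. The groups did not overlap in 2 of 10, Srf and Crtc2, both higher in the arrays labelled IPMK cKO. Over all probe sets the groups did not overlap in 27.2%, 12.4% with the arrays labelled IPMK cKO higher and 14.8% with them lower.

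**Figure D2:**
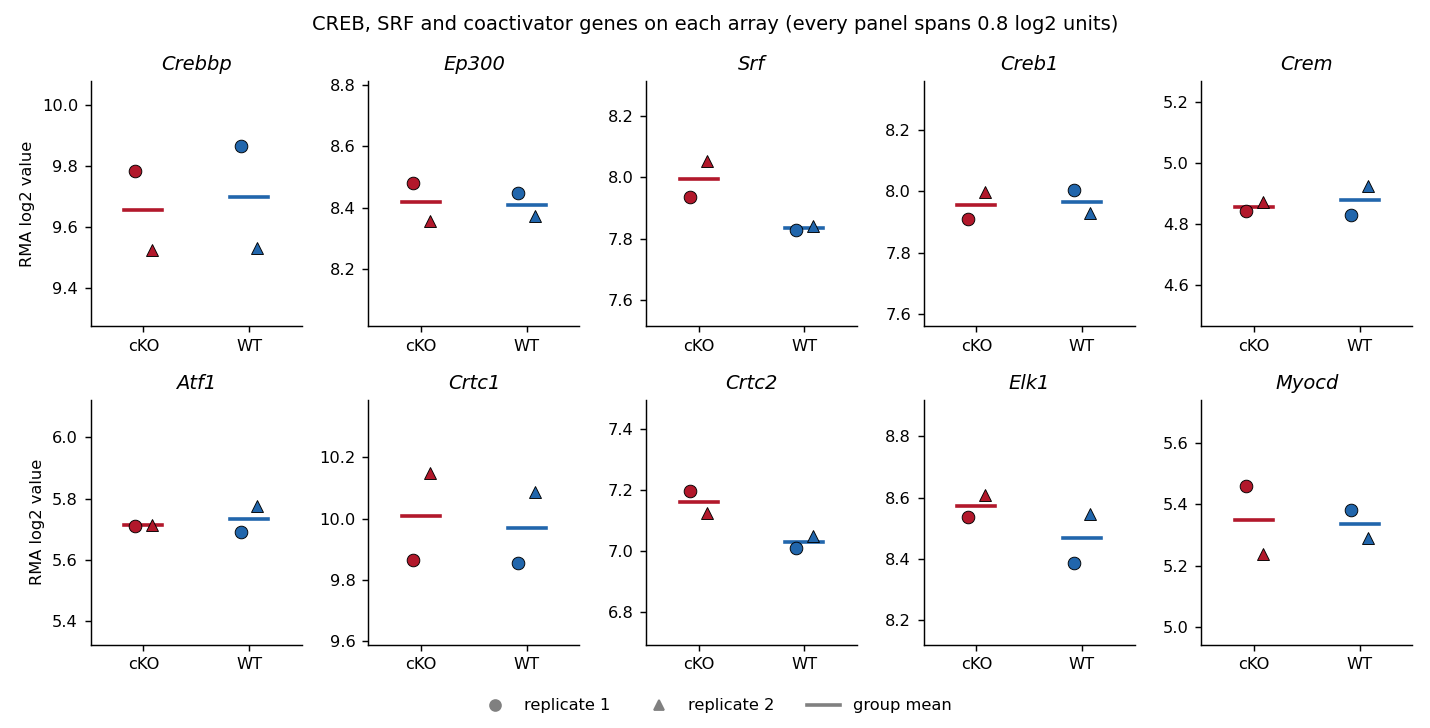
RMA log2 value of each gene on each array, arrays labelled IPMK cKO in red on the left and IPMK WT in blue on the right, circles for replicate 1 and triangles for replicate 2, bars for group means (n = 2). In Srf and Crtc2 both red points lie above both blue ones, while in Crebbp and Crtc1 the points split by replicate number.

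Crebbp encodes CBP, the acetyltransferase that phosphorylated CREB recruits and one of the proteins IPMK is described as binding. Its probe set of 25 probes on the minus strand of chromosome 16 (4084048 to 4213404 in the array annotation, which names no genome build) read 9.78 and 9.53 in the arrays labelled IPMK cKO, against 9.87 and 9.53 in those labelled IPMK WT. The groups overlapped, and within each label the replicate 2 array was the lower one. The means were 9.66 ± 0.18 and 9.70 ± 0.24 (SD, n = 2 each), a difference of −0.04 with a standard error of 0.17 (interval −0.47 to 0.38, limma adjusted p = 0.9999). On a linear scale this is 0.97-fold, with an interval of 0.72 to 1.30.

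Ep300 encodes p300, the close relative of CBP that shares many of its partners. On chromosome 15 (81585351 to 81652077, 29 probes, plus strand) it read 8.48 and 8.36 in the arrays labelled IPMK cKO, against 8.45 and 8.37 in those labelled IPMK WT. The groups overlapped, and again the replicate 2 arrays were the lower ones under both labels. The means were 8.42 ± 0.09 and 8.41 ± 0.05 (SD, n = 2 each), a difference of 0.01 (standard error 0.12, interval −0.30 to 0.32, or 0.81-fold to 1.24-fold, adjusted p = 0.9999 from limma).

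Srf, the MADS-box factor that binds CArG boxes, had the highest difference of the 10. Its probe set of 22 probes on the minus strand of chromosome 17 (46546839 to 46556162) read 7.94 and 8.05 in the arrays labelled IPMK cKO, against 7.83 and 7.84 in those labelled IPMK WT. Both arrays labelled IPMK cKO lay above both labelled IPMK WT, by a gap of 0.096. The means were 7.99 ± 0.08 and 7.84 ± 0.01 (SD, n = 2 each), a difference of 0.16 (standard error 0.12, interval −0.14 to 0.46), or 1.12-fold with an interval of 0.91 to 1.37. Ranked by limma p among all probe sets, Srf stood at place 5968, with an adjusted p of 0.9999. Between arrays of the same replicate number the difference was 0.11 for replicate 1 and 0.21 for replicate 2.

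Elk1, an ETS factor that joins SRF at serum response elements when MAP kinases phosphorylate it, read 8.54 and 8.61 in the arrays labelled IPMK cKO, against 8.39 and 8.55 in those labelled IPMK WT (chromosome X, 20933395 to 20950608, 22 probes). The groups overlapped by a narrow margin, since the lower array labelled IPMK cKO lay just under the higher one labelled IPMK WT. The difference was 0.11 (standard error 0.13, interval −0.21 to 0.42, adjusted p = 0.9999 from limma). Myocd encodes myocardin, the SRF coactivator of cardiac and smooth muscle, and had a mean of 5.34, beside a median of 5.13 over all probe sets. It read 5.46 and 5.24 in the arrays labelled IPMK cKO, against 5.38 and 5.29 in those labelled IPMK WT (chromosome 11, 65176561 to 65269989, 36 probes), a difference of 0.01 (standard error 0.14, interval −0.33 to 0.35). The arrays labelled IPMK cKO were the highest and the lowest of the 4.

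Creb1, the activator that gives the family its name, read 7.91 and 8.00 in the arrays labelled IPMK cKO, against 8.00 and 7.93 in those labelled IPMK WT (chromosome 1, 64532804 to 64604548, 23 probes). The groups overlapped, and the 4 arrays spanned 0.092. The difference was −0.01 (standard error 0.12, interval −0.31 to 0.29, or 0.81-fold to 1.22-fold). Crem, whose activator and repressor isoforms share most exons, is read by 1 probe set of 45 probes on chromosome 18, which cannot separate the short inducible repressor from the longer forms. It read 4.84 and 4.87 in the arrays labelled IPMK cKO, against 4.83 and 4.92 in those labelled IPMK WT, a difference of −0.02 (standard error 0.12). The mean of Crem over the 4 arrays was 4.87, beside a median of 5.13 over all probe sets. Atf1, which can pair with CREB on DNA, read 5.71 and 5.72 in the arrays labelled IPMK cKO, against 5.69 and 5.78 in those labelled IPMK WT (chromosome 15, 100227819 to 100261248, 12 probes), a difference of −0.02 (standard error 0.12, interval −0.32 to 0.27). In both Crem and Atf1 the arrays labelled IPMK WT were the highest and the lowest of the 4, enclosing both labelled IPMK cKO. Each of the 3 had an adjusted p of 0.9999 from limma.

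Crtc1, the CRTC family member most abundant in forebrain neurons, read 9.86 and 10.15 in the arrays labelled IPMK cKO, against 9.86 and 10.09 in those labelled IPMK WT (chromosome 8, 70382355 to 70439579, 21 probes). The groups overlapped almost fully, and the replicate 2 array was the higher one under both labels. The means were 10.01 ± 0.20 and 9.97 ± 0.16 (SD, n = 2 each), a difference of 0.04 (standard error 0.16, interval −0.36 to 0.43). Crtc2, the relative known best for the fasting response of the liver, read 7.20 and 7.13 in the arrays labelled IPMK cKO, against 7.01 and 7.05 in those labelled IPMK WT (chromosome 3, 90254163 to 90264125, 31 probes). Both arrays labelled IPMK cKO lay above both labelled IPMK WT, by a gap of 0.075. The means were 7.16 ± 0.05 and 7.03 ± 0.03 (SD, n = 2 each), a difference of 0.13 (standard error 0.12, interval −0.16 to 0.42), or 1.10-fold (adjusted p = 0.9999 from limma). Levels of different genes were not ranked against each other, because probe sets differ in affinity.

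**Figure D3:**
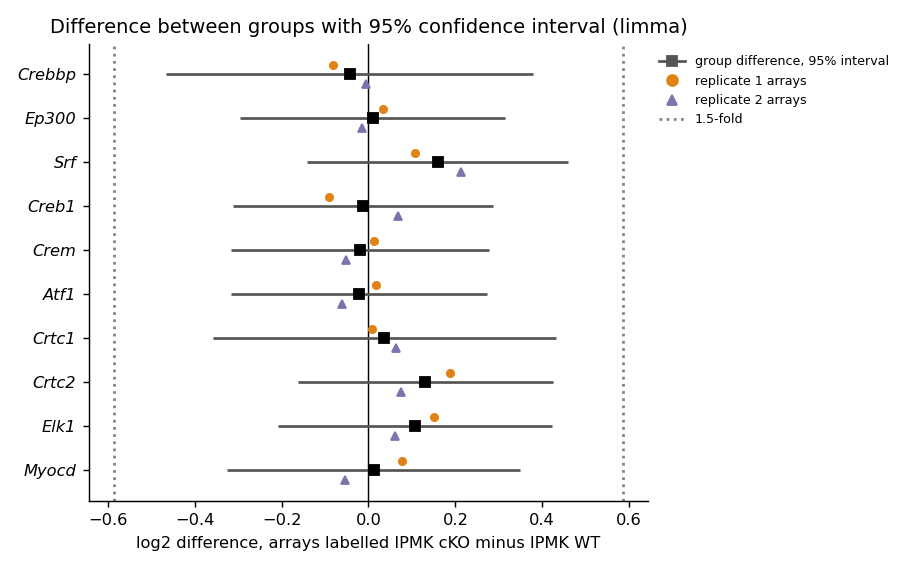
Difference in RMA log2 value, arrays labelled IPMK cKO minus IPMK WT, for each gene, with black squares for the difference of group means, lines for limma's 95% confidence interval, orange circles and violet triangles for the difference between arrays of replicate number 1 and 2, and dotted lines at 1.5-fold. Every interval includes 0 and lies inside the dotted lines, and Srf at 0.16 and Crtc2 at 0.13 lie farthest to the right.

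Several of the genes split by the replicate number of the labels more than by the label IPMK cKO or IPMK WT. Crebbp was lower in the replicate 2 array by 0.26 under the label IPMK cKO and by 0.33 under IPMK WT, against 0.04 between the labels. Crtc1 was higher in the replicate 2 array by 0.29 and 0.23, against a difference of 0.04 between the labels. The arrays of replicate number 2 and 1 did not overlap in 7 of 10 genes. Lower in replicate 2 were 3 (Crebbp, Ep300 and Myocd) and higher 4 (Crem, Atf1, Crtc1 and Elk1). Over all probe sets they did not overlap in 44.7%, with 22.7% lower and 22% higher in replicate 2. Markers of some cell types moved along the same split, and those of others did not. Astrocyte markers were higher in both replicate 2 arrays in 7 of 7 genes, oligodendrocyte markers in 7 of 7 and microglia markers in 6 of 7, with median differences of 0.49, 0.20 and 0.34, and excitatory neuron markers were lower in 6 of 7 with a median of −0.19. The mean level of the 7 astrocyte markers was 9.57 and 10.00 in replicates 1 and 2 labelled IPMK cKO, and 9.51 and 9.93 in those labelled IPMK WT. Mural and smooth muscle markers were lower in 4 of 7, with a median of −0.30, as were 12 of the 23 SRF target genes described below. Interneuron markers were higher in 3 of 7 and lower in 1, and endothelial markers higher in 1 of 7 and lower in 2. Choroid plexus markers split by replicate number in 0 of 7. The labels do not say what the replicate number stands for. Their animal numbers lie close together within each replicate number, and the litters are not given in the sources used here. The part of cell makeup in the values of Crebbp and Crtc1 was not tested.

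**Figure D4:**
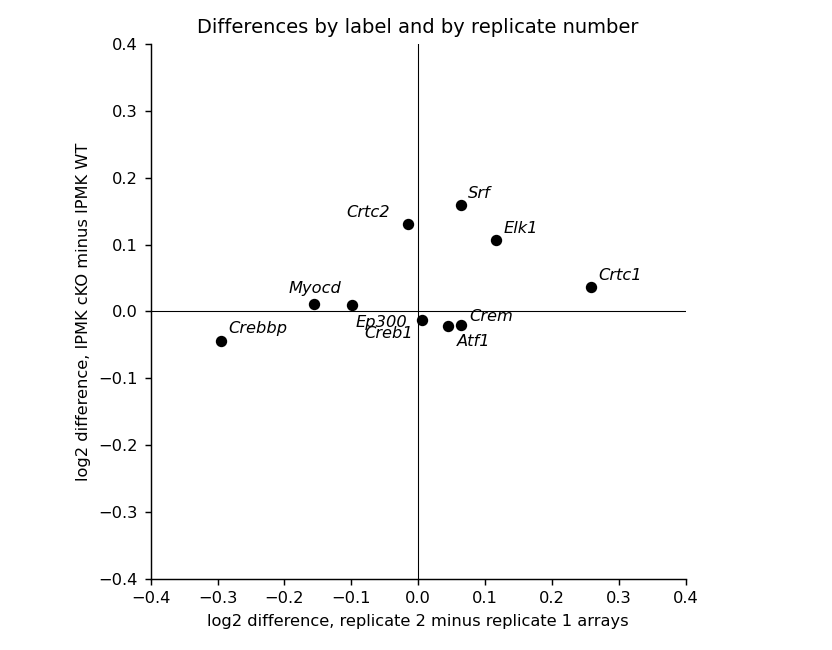
Difference by label (vertical axis, arrays labelled IPMK cKO minus IPMK WT, log2) against the difference by replicate number (horizontal axis, replicate 2 minus replicate 1 arrays, averaged over both labels, log2) for the 10 genes, on equal scales. Crebbp lies farthest to the left at −0.30 and Crtc1 farthest to the right at 0.26, both near 0 on the vertical axis, while Srf at 0.16 and Crtc2 at 0.13 lie highest.

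The likeness of profiles was taken as the root mean square difference of log2 values centred on each gene's mean over the 4 arrays, among 101 other genes of the members and pathway lists. Crebbp was most like Mrtfb, an SRF coactivator of the myocardin family (0.024), and Myl9, a myosin light chain (0.032). Ep300 was most like Creb5 and Crebl2, bZIP genes (0.011 and 0.012). Srf was most like Taf4, a TFIID subunit that CREB contacts (0.036), and Tgfb1i1, a focal adhesion gene (0.052). With 4 arrays such ranks describe these arrays only.

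Of 12 genes for kinases that phosphorylate CREB or act just above them, 6 averaged higher under the label IPMK cKO and 6 lower, the median difference was −0.00012, and 0 passed the adjusted or the unadjusted threshold. Lowest in p were Rps6ka3, which encodes the CREB kinase RSK2, at 0.16 (7.43 and 7.18 in the arrays labelled IPMK cKO, against 7.31 and 6.97 in those labelled IPMK WT), and Prkaca, a catalytic subunit of protein kinase A, at 0.09 (9.94 and 9.72 under the label IPMK cKO, against 9.77 and 9.69 under the label IPMK WT). Among 7 genes for the SIK kinases, which keep CRTC proteins in the cytoplasm, and calcineurin, which releases them, 4 were higher and 3 lower, with 0 past either threshold. Sik1, itself induced by CREB, differed by 0.14 and Sik3 by −0.05.

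Of 13 ATF and CREB relatives, 5 were higher and 8 lower, with a median of −0.02 and 0 past either threshold. Creb3l2 and Creb3l1, membrane-bound factors of the secretory pathway, had the lowest p, at −0.12 and −0.16. Of 11 cofactors of CREB and CBP, 7 were higher and 4 lower with a median of 0.01 and 0 past either threshold. The groups did not overlap in 6 of the 11, 4 higher and 2 lower, beside 27.2% of all probe sets. The gaps in these 6 were small, at 0.0045, 0.0093, 0.0094, 0.0094, 0.047 and 0.060. This list had the highest such share of the pathway lists. The counts were 3 of 13 for the relatives, 2 of 12 for the kinases and 1 of 7 for the CRTC regulators. They were 2 of 8 for the SRF cofactors, 5 of 23 for the CREB targets and 3 of 23 for the SRF targets. Cited1 and Cited2 both bind CBP and p300 and lay on opposite sides. Cited1 read 5.49 and 5.42 in the arrays labelled IPMK cKO, against 5.41 and 5.28 in those labelled IPMK WT, a difference of 0.11. Cited2 read 8.57 and 8.51 in the arrays labelled IPMK cKO, against 8.68 and 8.62 in those labelled IPMK WT, a difference of −0.11. Of 8 SRF cofactors, 2 were higher and 6 lower, with a median of −0.03, a range of −0.26 to 0.13 and 0 past either threshold. Mrtfa, the actin-sensing SRF coactivator also called MKL1, read 8.38 and 8.35 in the arrays labelled IPMK cKO, against 8.33 and 8.14 in those labelled IPMK WT, a difference of 0.13 (standard error 0.13). Mamstr, an activator of the related MEF2 factors that can also act on SRF, differed by −0.14.

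Differences of genes known as targets of CREB and SRF spread more widely than those of the factors, in lists of 23 genes each beside 10 members. The highest targets, Fos and Arc, also had larger standard errors, 0.27 and 0.30, against 0.12 to 0.17 for the members. Of 23 CREB targets, 17 averaged higher under the label IPMK cKO and 6 lower, where 48.4% of all probe sets averaged higher, with a median difference of 0.14 and a range of −0.15 to 0.58. The tilt lay in the replicate 1 arrays, where 18 of 23 were higher under the label IPMK cKO, while between the replicate 2 arrays 9 of 23 were higher (over all probe sets 50.4% in replicate 1 and 47.7% in replicate 2). The groups did not overlap in 5 of 23, all higher under the label IPMK cKO, or 21.7% beside 27.2% of all probe sets in either direction and 12.4% in that one. None passed the adjusted threshold (0 of 23), and 0 of 23 had an unadjusted p under 0.05. Fos, the immediate early gene and a subunit of AP-1, read 6.29 and 6.01 in the arrays labelled IPMK cKO, against 5.19 and 5.95 in those labelled IPMK WT. Replicate 1 of the arrays labelled IPMK WT stood low, and without it the difference of 0.58 (standard error 0.27, interval −0.08 to 1.24) became 0.20. Nr4a1, a nuclear receptor induced by activity, read 9.21 and 8.89 in the arrays labelled IPMK cKO, against 8.39 and 8.89 in those labelled IPMK WT, a difference of 0.41 (standard error 0.21) that became 0.16 without the same array. For the whole CREB target list, the median of 0.14 became 0.06 without that array and 0.02 once replicate 1 labelled IPMK cKO was left out.

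Of 23 SRF targets, 15 averaged higher under the label IPMK cKO and 8 lower, with a median of 0.01 and 0 past the adjusted threshold. Between the replicate 2 arrays 10 of 23 were higher, against 15 of 23 between the replicate 1 arrays. The lists share 4 immediate early genes, Fos, Fosb, Egr1 and Arc. Ccn1, a secreted matrix protein whose gene responds to SRF and its actin-coupled coactivators, was the 1 gene with an unadjusted p under 0.05 among the 92 distinct genes of these lists, or 1.09% beside 2.86% of all probe sets, and its adjusted p was 0.9999 in limma. It read 7.05 and 7.02 in the arrays labelled IPMK cKO, against 6.48 and 6.80 in those labelled IPMK WT, a difference of 0.39 (standard error 0.15, interval 0.02 to 0.77), and 0.23 once replicate 1 labelled IPMK WT was left out. Actg1, a cytoplasmic actin gene under SRF, differed by −0.03. Its 1 probe set, of 11 probes, had a mean level of 5.86, beside a median of 5.13 over all probe sets. Tagln, a contractile gene of smooth muscle at 0.42, stands both in this list and among the markers of mural cells, of which 3 of 7 had a higher mean and the mean level was 7.40 and 7.13 in the arrays labelled IPMK cKO, against 7.44 and 6.99 in those labelled IPMK WT.

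**Figure D5:**
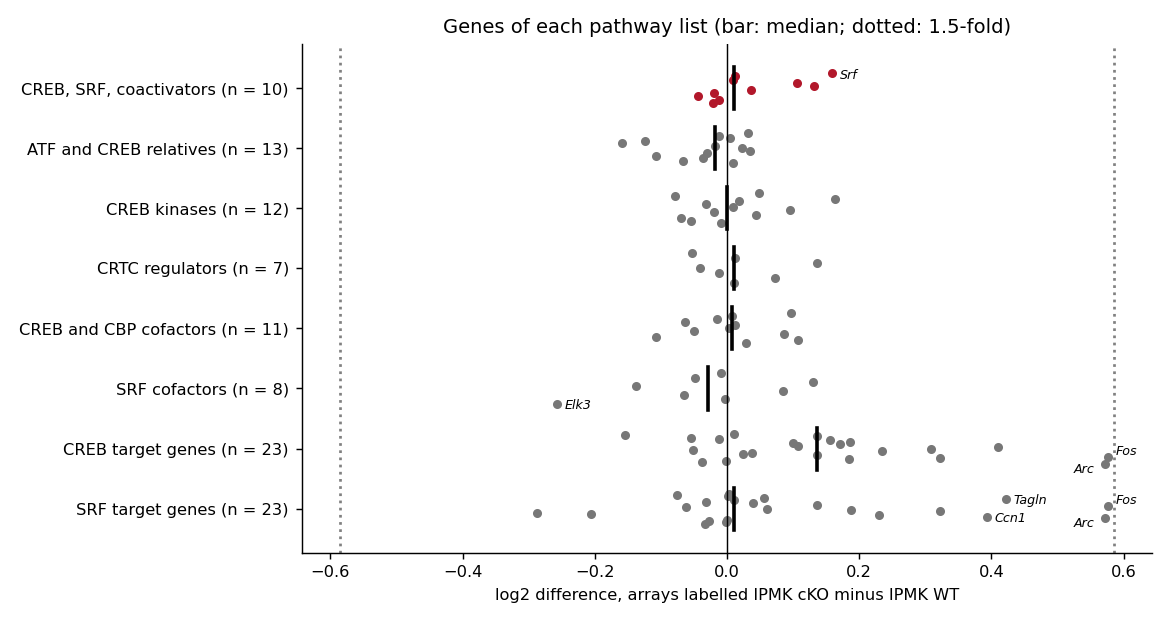
Difference in RMA log2 value, arrays labelled IPMK cKO minus IPMK WT, for the 10 CREB, SRF and coactivator genes (red) and the genes of 7 pathway lists (grey), 1 point per gene, with black bars for list medians and dotted lines at 1.5-fold. No point passes 1.5-fold, and the CREB targets have the highest median, 0.14, with Fos at 0.58.

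The promoter windows of the targets were searched for the same letters. Of those with a window, 15 of 17 CREB targets held the core TGACG, against 23% of all genes, 4 of 17 the palindrome TGACGTCA, against 2.03%, and 5 of 14 SRF targets a CArG box, against 1.81%. The core was not particular to the CREB targets. It was held by 7 of 8 CREB kinases, 4 of 4 CRTC regulators, 5 of 10 ATF and CREB relatives and 4 of 8 SRF cofactors. Among SRF targets 5 of 14 held it, and among CREB and CBP cofactors 2 of 8. Stretches of 40 to 80 bases from the windows of 6 genes are shown, picked for the motifs they hold: TGACG cores for Fos, Nr4a1 and Ccn1, CArG boxes for Actg1 and Cited1, and the full palindrome for Pcsk1. The stretch of Nr4a1 holds 2 of the 4 cores in its window. Pcsk1, a prohormone convertase, differed by 0.10.
Fos: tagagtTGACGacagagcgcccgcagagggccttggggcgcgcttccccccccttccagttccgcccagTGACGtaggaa
Nr4a1: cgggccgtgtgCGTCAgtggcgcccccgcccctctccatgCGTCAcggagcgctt
Pcsk1: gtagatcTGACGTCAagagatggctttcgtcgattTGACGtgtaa
Ccn1: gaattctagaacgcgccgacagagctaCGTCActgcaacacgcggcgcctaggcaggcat
Actg1: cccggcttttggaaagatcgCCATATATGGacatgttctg
Cited1: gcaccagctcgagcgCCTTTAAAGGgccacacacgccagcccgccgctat
These lie at chr12:85473755-85473834 (Fos, plus strand), chr15:101266766-101266820 (Nr4a1, plus strand), chr13:75089772-75089816 (Pcsk1, plus strand), chr3:145650011-145650070 (Ccn1, minus strand), chr11:120348566-120348605 (Actg1, minus strand) and chrX:102252192-102252241 (Cited1, minus strand) in GRCm38.p6.

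Choroid plexus markers had lower means in 7 of 7 genes, with a median difference of −0.32 and a mean level of 7.34 and 8.12 in the arrays labelled IPMK cKO, against 8.22 and 7.85 in those labelled IPMK WT. Replicate 1 of the arrays labelled IPMK cKO stood low, and the groups overlapped in all 7. Between the replicate 1 arrays 0 of 7 were higher under the label IPMK cKO, and between the replicate 2 arrays 7 of 7. Astrocyte markers differed by a median of 0.07, microglia markers by −0.07, oligodendrocyte markers by −0.06, endothelial markers by −0.10, mural markers by −0.03, interneuron markers by −0.03 and excitatory neuron markers by −0.0018. In limma 0 of the marker genes had an unadjusted p under 0.05. Their part in the values of Srf, Crtc2 and the CREB targets was not tested.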

How the data were processed

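Right hippocampi of 4 male mice were measured on 1 array each, 2 labelled IPMK cKO and 2 IPMK WT. The deposited values are on the log2 scale: the authors extracted the scans and summarized them per gene by RMA (background correction, quantile normalization) in Expression Console, with no version given in the sources used here. A shift of total signal between arrays therefore cannot be seen. The series matrix and the workbook hold equal values (largest difference 8.88e-16), and 4 further per-array columns were not used. Fold changes, scores and p-values of the authors' own comparison are in the workbook and were not used.

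Labels were compared in R 4.3.3 with limma 3.58.1 over all 33793 probe sets, without a block, because the methods state none. The local pooled error (LPE) test of the methods was rewritten (100 intensity bins, span 0.2) as an alternative. Scripts were tested on simulated data. Plots used matplotlib 3.10.9. Members and lists were chosen with earlier results of these data known. Named were all members, Ipmk, the 2 genes of each pathway list with the lowest p, and the 2 genes most like Crebbp, Ep300 and Srf. Arc, Fosb, Egr1, Tagln, Actg1 and Pcsk1 were named after their values were seen. Symbols came from the array annotation, 5 of the list genes under older symbols. Arrays give no depth in counts, so their number limits the precision.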

Additional observations from a re-analysis of the deposited data

How the results depend on the processing

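Under the 16 alternatives, 0 of the 10 members passed an adjusted p of 0.05. Srf lay between 0.10 and 0.22, Crtc2 between 0.10 and 0.17 and Elk1 between 0.03 and 0.19, all on the side reported. The other 7 members changed sign in 16 values, out of 157 over all 10 members, none of them called. Alternatives that changed only the test, its variance, the block or the filter could not move a member's difference. Groups that do not overlap, as in Srf and Crtc2, keep their sign whichever array is left out. The kept signs were thus partly fixed in advance. Probe sets called numbered 0 in each limma setting and in the test of averages, and 2 by LPE. Leaving out each array in turn (the spread of the remaining one is then borrowed from the other label), the median of the CREB targets lay between 0.016 and 0.20, that of the CRTC regulators between −0.046 and 0.077 and that of the CREB and CBP cofactors between 0.0102 and 0.072. Median centring gave 0.031 for the CRTC regulators and 0.028 for the cofactors, and renewed quantile normalization −0.0056 and −0.0101. Median centring also turned the sign of the medians of the ATF and CREB relatives (0.0026 beside −0.018) and the CREB kinases (0.021 beside −0.00012), and gave 0.031 for the members and 0.031 for the SRF targets, beside 0.01 each. A block by replicate number, which the labels give but do not explain, left 0 probe sets and 0 members called, with 1502 probe sets at an unadjusted p under 0.05 beside 966. The correlation of the replicate differences across probe sets was 0.244. The cause was not tested. Of all probe sets, 29.1% had a mean log2 value under 4. Filters at 4 and 6 left out no member and 3 (Crem, Atf1 and Myocd).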
